A study of Mus musculus with 24 samples.

Results

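Mammary tumors that appeared early in mice kept on a high-fat diet (HFD) were compared with tumors that appeared late on the same diet. The groups were chosen by the submitters' labels: 3 tumors labelled HFD Early (tumors 163, 768 and 97) and 6 labelled HFD Late (tumors 62a, 67, 84, 86, 93 and 96), which make 9 of the 24 tumors of the series. All came from female BALB/c mice that received the carcinogen 7,12-dimethylbenz[a]anthracene (DMBA) by weekly oral gavage around puberty, so that early and late tumors shared strain, diet and carcinogen, and no transgene or deletion was involved. The HFD was rich in saturated animal fat and was given from before puberty until the tumor was taken; the labels give no age or latency for single tumors. The comparison asks which genes differed with tumor onset under the same diet. Early tumors came from younger mice that had been on the diet for a shorter time. The study also reports that short-latency tumors more often had adenosquamous histology and lacked hormone receptors. Age, length of diet and histology therefore cannot be told apart from onset here. A further 3 early and 3 late tumors labelled HFD-LFD, from mice moved to a low-fat diet (LFD) in adulthood, are set beside them where the same genes were measured. RNA from each tumor was hybridized on its own 2-color array together with a common RNA made from a pool of mouse cell lines, and every level given here is a log2 ratio of tumor to that reference. The labels do not say that the tumors came from separate mice. Tumor 62a shares its title number with tumor 62b, which is labelled HFD-LFD Early, and whether they came from 1 mouse is not stated. The labels were kept. The p-values and SEs rest on the spread between tumors within the 6 diet and onset groups of all 24 arrays, not of the 9 HFD tumors alone.

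Mammary epithelium has an inner luminal layer, part of which carries hormone receptors and part of which makes milk, and an outer basal layer. Carcinogen-induced mammary tumors in mice can keep luminal features or take on squamous, skin-like differentiation, and they contain stroma, vessels and immune cells beside the tumor cells. Wnt signaling, which acts through beta-catenin and TCF factors and switches on its own feedback antagonists, maintains stem cells in the mammary gland and the hair follicle and is often raised in mouse mammary tumors. Interferons switch on a set of antiviral genes, and dividing cells raise the genes of DNA replication and mitosis.

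The labels put tumor RNA in the Cy5 dye and the reference in Cy3, whereas the study's methods name the dyes the other way around. The labels' direction was kept, and it opposes the one stated in those methods. Over the 24 arrays the SD between arrays had a median of 0.46 log2 units in Cy5 and 0.18 in Cy3. Spots for 4 Y chromosome genes were well above background in 1.91% of values in Cy5 and 39.1% in Cy3, and the tumors came from female mice. The share of probes well above background in the tumor channel was 73.3% to 81.2% in the early tumors and 67.3% to 89.2% in the late tumors, and the number of arrays limits the precision. On the slide that held late tumors 93 and 96, Cy5 was dim over the high-numbered rows, 28.3% of the spots, and those spots were left out. Genes measured there have 4 late values in place of 6. Of the values in the 9 tumors, 2.84% were imputed. The 3 early tumors were the only tumors on their slide, so slide and onset cannot be told apart. Slide as a random block, given below, uses the likeness of tumors within a slide over all 24 arrays (correlation 0.106). It cannot separate an effect of the early tumors' slide from onset.

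The 9 tumors were not equally alike. Over 15177 genes measured or imputed in all 9, Pearson correlations between tumors were 0.86 to 0.95 among early tumors, 0.59 to 0.97 among late tumors and 0.61 to 0.89 between early and late ones, given as a description across genes. Late tumor 86 stood apart, with 203 genes more than 2 log2 units above every other tumor and 30 as far below. It was low for the luminal and general epithelial markers Krt8 (-4.74), Krt18 (-4.10), Cldn3 (-3.36) and Epcam (-1.31), and high for the basal keratins Krt14 (3.61) and Krt5 (2.56). Over 8 markers of mammary epithelium its mean was -0.46, against 0.69 to 1.57 in the other tumors, the lowest of the 9 tumors. Late tumor 96 resembled the early tumors most, with correlations of 0.89 with early tumors 768 and 97. Late tumors 67 and 84 were the closest pair (0.97), and their values differed with an SD of 0.29 log2 units across genes. The labels list them as separate tumors, and they were counted as such. Counts below are also given without tumors 86 and 96, an alternative chosen after the data had been seen.

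Of 20956 genes tested, 2988 passed an adjusted p under 0.05 (limma, Benjamini-Hochberg), which is 14.3%. Of these 1303 were higher in early tumors (6.22% of all genes) and 1685 were lower (8.04%). The median difference, early minus late, was -0.08 log2 units over all genes and the median size of a called difference was 0.84. Changes beyond 2-fold were seen for 426 higher and 599 lower genes, and beyond 4-fold for 28 and 41. Every early tumor lay outside the range of the late tumors for 4258 genes (20.3%), of which 2408 were also called. Without tumors 86 and 96, 3601 genes were called, and without tumor 62a 3121 were. Leaving out an early tumor lowered the count, to 1516 without tumor 163, 1157 without 768 and 1470 without 97. With slide as a random block it was 1244, all of them among the 2988. The 9 HFD arrays alone gave 871, keeping the dim rows gave 1556 and array weights gave 8825. The split by direction rested on the dye normalization: with arrays centred on their median in place of loess, 3231 genes were higher and 374 lower (89.6% higher, against 43.6%), and the median over all genes moved from -0.08 to 0.24. For the main lists the median relative to that of all genes is therefore given too. Over the 24 alternatives this relative median was above 0 throughout for replication (0.30 to 0.64), G1/S (0.37 to 0.58) and Wnt genes (0.17 to 0.60). The same held for squamous (0.52 to 2.06), hair (0.39 to 1.68), hypoxia (0.22 to 0.705), purine (0.21 to 0.76) and ribosome biogenesis genes (0.15 to 0.45). The relative median was below 0 throughout for endothelial (-0.97 to -0.44), luminal hormone-responsive (-1.19 to -0.54), xenobiotic (-0.85 to -0.42), complement (-0.555 to -0.20), T cell (-0.93 to -0.28), fibroblast (-0.64 to -0.17) and adipocyte genes (-1.32 to -0.52).

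**Figure D1:**
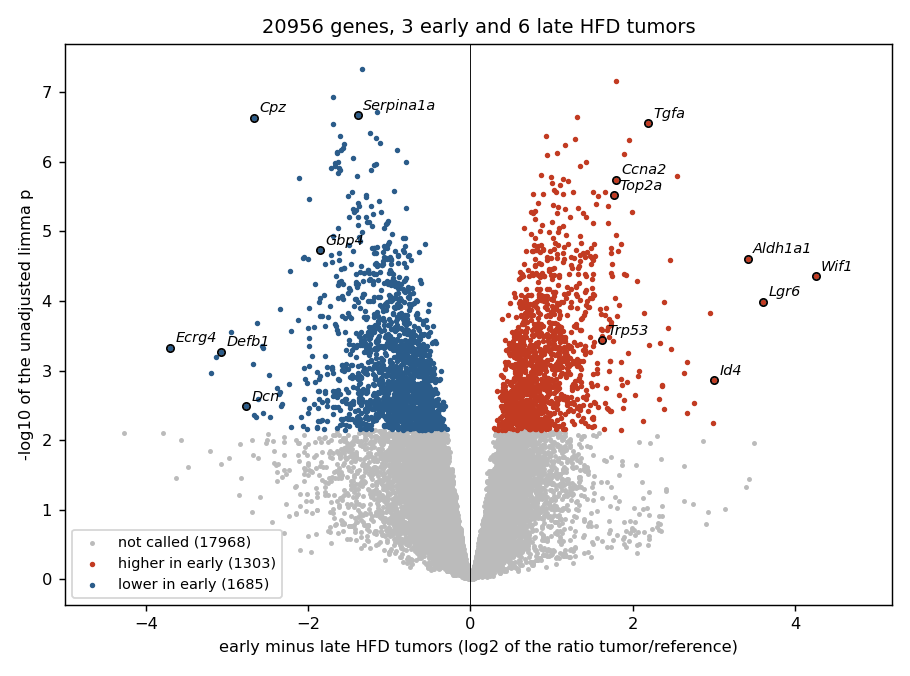
Each point is 1 of the 20956 genes tested, with the difference between early and late HFD tumors (log2 units, early minus late) on the horizontal axis and -log10 of the unadjusted limma p on the vertical axis. The 1303 genes called higher are red, the 1685 called lower are blue and the others gray, and Wif1 (4.25) and Ecrg4 (-3.70) lie far out on either side.

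The genes that rose most in early tumors included several of the Wnt pathway. Lgr6, a receptor for R-spondins that marks stem cells of the hair follicle, was at 3.47, 4.35 and 4.49 in the early tumors, and in the late tumors the lowest value was -1.32, the median 0.28 and the highest 3.11. The highest late value belonged to tumor 96, and the others were at 0.70 or below, so the groups did not overlap. The difference was 3.60 ± 0.75 (SE, n = 3 and 6, adjusted p = 0.00488), a 12.2-fold higher level. Aldh1a1, an enzyme that oxidizes retinaldehyde to retinoic acid, was at 2.20, 3.17 and 3.05 in early tumors and from -1.65 through a median of -0.53 to 0.37 in late ones. All early tumors were above all late tumors, by 3.42 ± 0.63 (SE, adjusted p = 0.00255). Id4, an inhibitor of basic helix-loop-helix transcription factors, was at 4.03, 4.87 and 4.63 in early tumors and at 0.60, 2.63, 3.25 and -0.46 in late tumors 62a, 67, 84 and 86. It was high in every early tumor and varied by over 3 log2 units among the late ones, and the difference was 3.01 ± 0.78 (SE, n = 3 and 4, adjusted p = 0.0194). Tcf7, a transcription factor of the TCF family that binds beta-catenin, was at 2.93, 2.41 and 1.13 in early tumors, the last of them imputed, and at -0.97, -0.16, 0.13 and -1.04 in late tumors 62a, 67, 84 and 86. The groups did not overlap, and Tcf7 was 6.36-fold higher in early tumors (2.67 ± 0.65, SE, adjusted p = 0.0138).

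The other large rises were of mixed function. Sp5, a transcription factor induced by Wnt signals, varied widely among early tumors, at 2.21, 1.12 and -0.20, and in late tumors, with tumor 93 imputed, it lay between -2.06 and -1.12 with a median of -1.60 (difference 2.67 ± 0.81, SE, adjusted p = 0.0359). The lowest early value was still above every late one. Cybrd1, a ferric reductase of the plasma membrane, was at 1.21, 2.04 and 1.18 in early and at -0.25, -0.61, -0.98 and -2.09 in late tumors (difference 2.46 ± 0.43, SE, adjusted p = 0.0026). Espn, which bundles actin filaments, was at 1.90, 1.90 and 1.24 in early tumors and from -1.50 through -0.62 to -0.13 in late ones (2.39 ± 0.50, SE, adjusted p = 0.00489). In both genes the groups were well apart. Bex4 was low against the reference in all tumors but less so in the early ones, at -2.68, -0.76 and -3.37, against -5.74 to -3.53 in the late tumors with a median of -5.28. Jakmip2 (2.96), St8sia6 (2.47), a sialyltransferase, Tal2 (2.43) and Fam181b (2.33) completed the 12 rises. These 12 were the largest among called genes chosen for groups that did not overlap and for at most 1 imputed value, which leaves out Wif1, described with the Wnt list.

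**Figure D2:**
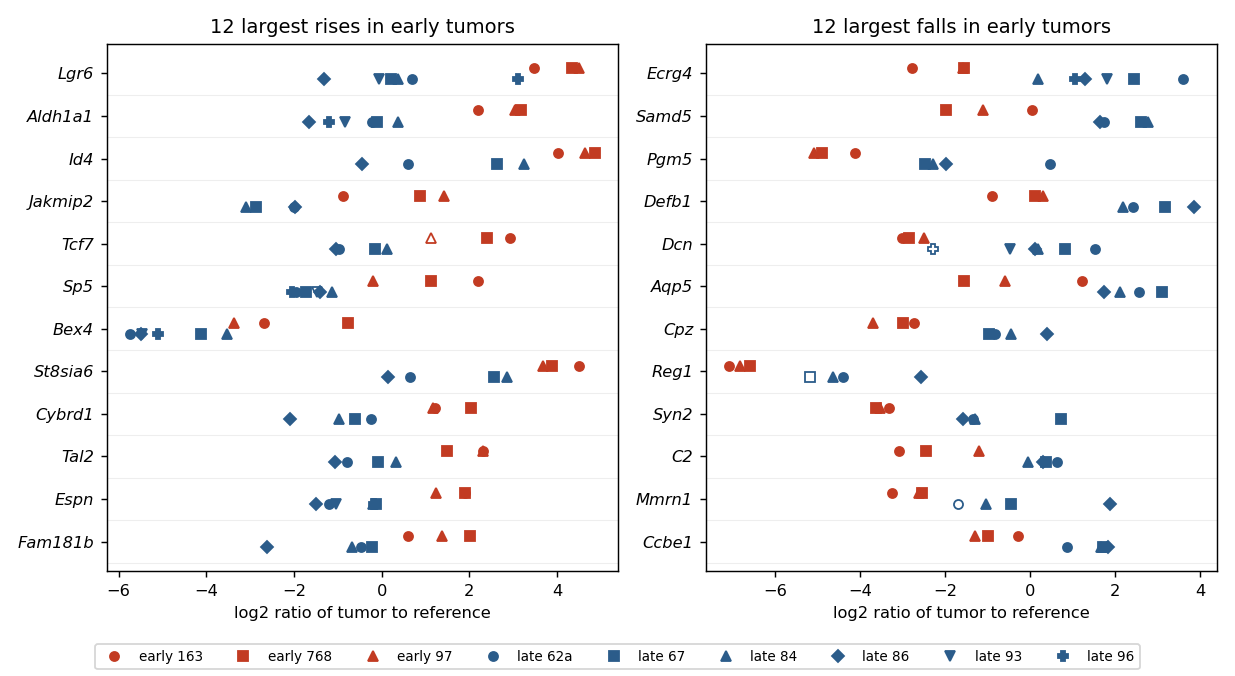
Log2 ratio of tumor to reference (horizontal axis) in each measured HFD tumor for the 12 largest rises and 12 largest falls, with early tumors in red, late tumors in blue, 1 symbol for each tumor and open symbols for imputed values. Lgr6 shows 1 late tumor (96, at 3.11) close to the early tumors, and Aldh1a1 shows none.

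The 12 falls were chosen by the same rule. All but Ecrg4 and Dcn lacked values of late tumors 93 and 96. Among 1254 lower calls measured or imputed in all 9 tumors, tumor 96 reached the highest early value in 17.6%, the largest share of the late tumors. Ecrg4, which encodes a secreted peptide precursor, was at -2.78, -1.56 and -1.59 in early tumors and in late tumors had a lowest value of 0.19, a median of 1.54 and a highest of 3.59. The early tumors were all below the late ones, by 3.70 log2 units (SE 0.86, n = 3 and 6, adjusted p = 0.0107), a 13-fold lower level. Defb1, a beta-defensin of epithelial surfaces, was at -0.91, 0.11 and 0.30 in early tumors and at 2.42, 3.16, 2.17 and 3.85 in late tumors 62a, 67, 84 and 86. It fell by 3.07 on the log2 scale (SE 0.72, adjusted p = 0.0114). Aqp5, a water channel of glandular epithelium, was at 1.22, -1.56 and -0.59 in early and at 2.55, 3.10, 2.10 and 1.73 in late tumors. Its range was wide in early tumors, tumor 163 being the highest, yet it stayed under every late value (difference -2.68 ± 0.66, SE, adjusted p = 0.0143). Dcn, the matrix proteoglycan decorin, was at -3.02, -2.85 and -2.50 in early tumors and from -2.29 through 0.15 to 1.52 in late tumors, where the lowest value was an imputed one in tumor 96 (difference -2.77 ± 0.81, SE, adjusted p = 0.0315). Cpz, a carboxypeptidase that can bind Wnt proteins, was at -2.73, -2.99 and -3.70 in early tumors and at -0.82, -0.98, -0.46 and 0.38 in late ones. The difference was -2.67 ± 0.32 (SE, adjusted p = 0.000637). C2, the second complement component, fell by 2.56, Mmrn1, found in lymphatic vessels and platelets, by 2.48, and Ccbe1, needed for lymphatic growth, by 2.38. Samd5 (-3.20), Pgm5 (-3.13), Reg1 (-2.63) and Syn2 (-2.62) made up the rest of these 12 genes.

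Some genes of DNA replication and mitosis rose in early tumors, while most members of both lists did not pass the test. Of 53 mitosis and G2/M genes tested, 18 rose and none fell, and the list's median difference was 0.71. Of 55 genes of the replication origin and fork, 12 rose and none fell (median 0.38). These are 34.0% and 21.8% of the lists called higher, beside 6.22% of all genes and an overall median of -0.08. Ccna2, the cyclin of S phase and mitotic entry, was at 1.27, 0.85 and 1.03 in early tumors and at -1.26, -0.84, -0.17 and -0.70 in late tumors 62a, 67, 84 and 86 (difference 1.80 ± 0.25, SE, n = 3 and 4, adjusted p = 0.000805). Early tumors were above and late tumors below the reference. Top2a, the DNA topoisomerase of dividing cells, was at 1.21, 0.58 and 0.94 in early tumors and at -1.40, -0.88, -0.55 and -0.62 in late ones (1.77 ± 0.26, SE, adjusted p = 0.00101). Tyms, which makes thymidylate for DNA, was at 1.61, 1.001 and 1.44 in early tumors and between -0.06 and 0.82 in late ones, with a median of 0.30 (1.07 ± 0.18, SE, adjusted p = 0.0013). In each of these genes the measured groups did not overlap, but for Ccna2 and Top2a late tumors 93 and 96 were not measured. Hmmr (1.20), a hyaluronan receptor that also acts at the spindle, Cenpf (0.89), a kinetochore protein, and Orc2 (0.86), a subunit of the origin recognition complex, rose too. Mki67, the proliferation marker, differed by 1.11 and was called. Averaged over the 44 mitosis genes measured in all 9 tumors, early tumors were at 0.33 to 0.86, and late tumor 96 was at 0.73 while the others lay between -1.003 and 0.08. Without tumors 86 and 96, 23 mitosis and 19 replication genes were called higher. With slide as a random block 12 and 6 were, without early tumor 163 8 and 3, and with the 9 HFD arrays alone 6 and 3. Relative to the median of all genes the mitosis list was 0.79 higher, and 0.49 to 0.99 over the 24 alternatives.

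The promoters of the called members are shown as the sequences beside their start sites. CCAAT is the letters of the CCAAT box and TTTGAA those of the cell cycle homology region, both known from cell cycle genes. Of the 30 called replication and mitosis genes, 28 matched a RefSeq table of GRCm38.p6 promoters, windows of 300 bases around 30 start sites. The 150 bases before the start of Top2a, Hmmr, Cenpf, Tyms and Orc2 are printed 5′ to 3′ on the gene's strand, here the minus strand of the genome, with capitals where the letters of either motif, or their reverse complement, were found.
Top2a, chr11:99024190-99024339: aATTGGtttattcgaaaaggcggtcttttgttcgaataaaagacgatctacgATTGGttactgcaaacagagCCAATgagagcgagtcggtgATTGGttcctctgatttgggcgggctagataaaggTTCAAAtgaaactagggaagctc
Hmmr, chr11:40733438-40733587: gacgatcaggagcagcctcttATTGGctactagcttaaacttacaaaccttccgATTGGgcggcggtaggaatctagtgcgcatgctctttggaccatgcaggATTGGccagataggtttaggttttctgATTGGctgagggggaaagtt
Cenpf, chr1:189688087-189688236: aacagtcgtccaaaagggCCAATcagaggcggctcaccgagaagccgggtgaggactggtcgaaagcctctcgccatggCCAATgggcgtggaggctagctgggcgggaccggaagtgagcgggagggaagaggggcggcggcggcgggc
Tyms, chr5:30073626-30073775: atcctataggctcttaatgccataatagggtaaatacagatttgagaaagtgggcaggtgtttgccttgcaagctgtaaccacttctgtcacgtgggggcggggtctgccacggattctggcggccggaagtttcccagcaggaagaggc
Orc2, chr1:58505110-58505259: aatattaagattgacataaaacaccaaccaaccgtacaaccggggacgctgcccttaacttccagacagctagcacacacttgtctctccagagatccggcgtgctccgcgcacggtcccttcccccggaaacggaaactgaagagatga
In these windows Top2a, Hmmr and Cenpf held CCAAT and Top2a also TTTGAA, while Tyms and Orc2 held neither. Counted on both strands over the 300 bases, CCAAT was in 21 of the 30 promoters (70%), against 61.8% of the 76 promoters of the other tested genes of both lists and 37.3% of the 16723 promoters of all tested genes. TTTGAA was in 15 (50%), against 35.5% and 12.9%. TTTCCCGC and TTTGGCGC, letters found in sites of the E2F factors, were in 2 (6.67%) and 1 (3.33%), against 9.21% and 10.5% of the other list genes and 1.63% and 0.80% of all promoters. No searched motif contains another, and a match is a description of the sequence only.

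Around the G1/S step, 7 of 33 genes rose and 1 fell (21.2% and 3.03%, beside 6.22% and 8.04% of all genes, median 0.40). Tfdp1, the partner of E2F factors, was at 2.06, 2.11 and 1.70 in early tumors and between 0.16 (tumor 86, imputed) and 1.37 in late ones, with a median of 0.52 (difference 1.34 ± 0.23, SE, adjusted p = 0.00251). The kinase gene Cdk2 rose by 1.25 and Rbl2, a member of the retinoblastoma family, by 1.30. With tumors 86 and 96 left out, 11 G1/S genes were called higher and 1 lower, with slide as a random block 4 and none, and without early tumor 768 3 and none. In de novo purine synthesis, 3 of 12 genes rose and none fell (median 0.29): Gmps, which makes GMP, by 1.70, Prps2, which makes the ribose donor, by 1.42, and Paics by 1.35. Prps2 was at 2.24, 2.38 and 2.44 in early and at 1.39, 0.80, 0.69 and 0.84 in late tumors, with little spread in either group. Of 35 genes of ribosome biogenesis, 3 rose (8.57%, beside 6.22% of all genes): Nop16 (1.32), Gnl3 (1.05) and Polr1c (0.48). Over the 24 alternatives the purine genes called higher numbered 2 to 7 and the ribosome biogenesis genes 1 to 11. Of 34 hypoxia and glycolysis genes, 3 rose (8.82%, and 0 to 8 genes over the alternatives, with 0 called by limma without early tumor 163). The median of this list was 0.29 in HFD and -0.44 in HFD-LFD. The members that rose included Ero1a, an oxidase of the endoplasmic reticulum, at 3.33, 2.07 and 1.95 in early tumors and at 0.72 or below in late ones (2.07 ± 0.55, SE, adjusted p = 0.0181). Ankrd37 rose by 1.54. The probe carrying the name of the glycolytic gene Pgk1 was called too (1.26), but the file places it on chromosome 3 and RefSeq places the gene on X, so its identity is uncertain.

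Within the Wnt list of antagonists and targets, 7 of 34 genes rose and 1 fell (20.6% and 2.94%, beside 6.22% and 8.04% of all genes, median 0.22). Wif1, a secreted antagonist that binds Wnt proteins, had the largest difference of the list. It was at 2.73, 2.64 and 3.79 in early tumors, and in late tumors the lowest value was -3.18, the median -1.19 and the highest 1.77. The values of early tumor 768 and of late tumor 96, the highest late one, were imputed. The groups did not overlap, and the difference was 4.25 ± 0.82 (SE, adjusted p = 0.00323). Beside Wif1, Lgr6, Tcf7 and Sp5, the feedback antagonists Nkd2 (2.08) and Notum (1.66) and beta-catenin itself, Ctnnb1 (0.97), were called higher, while Sfrp5, another secreted antagonist, was lower (-1.69). The other 26 members tested were not called, among them Lef1 (-0.16), Lgr5 (0.27) and Nkd1 (1.20). Axin2, Bambi, Dkk1, Dkk4, Wnt3 and Wnt3a were not tested. Leaving out tumors 86 and 96, 11 genes of the list were called higher and 4 lower, but with slide as a random block 4 were higher and without early tumor 768 3 were, with none lower in either. Among 15 EGF family ligands and receptors, 2 rose and none fell, and over the alternatives 1 to 3 rose and 0 to 3 fell. Tgfa, the EGF receptor ligand transforming growth factor alpha, was at 2.53, 3.24 and 2.66 in early tumors and from -0.00 through 0.51 to 1.33 in late ones, with every early value well above (2.19 ± 0.29, SE, adjusted p = 0.000637). Erbb3, a receptor of the family, differed by 0.69 ± 0.20 (SE, adjusted p = 0.0244, tumor 62a imputed), with early and late values overlapping. The median of this list was -0.06 and its place relative to all genes changed sign in 8 of the 24 alternatives.

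Some interferon-stimulated genes fell in early tumors. Of 36 tested, 25 were not called, 11 fell and none rose (30.6%, beside 8.04% of all genes), and the median difference was -1.01. Gbp4, a guanylate-binding protein induced by interferon gamma, was at 0.64, 1.05 and 1.83 in early tumors and from 2.60 through 2.87 to 3.86 in late ones (difference -1.86 ± 0.34, SE, adjusted p = 0.0024). The groups were apart, tumor 97 being the highest of the early tumors. Irf1, an interferon regulatory factor, was at 0.54, 0.62 and 0.86 in early tumors, and in late tumors it was at 0.90 in tumor 86 and at 1.73 to 1.94 in the others, with values of tumors 768 and 62a imputed (-0.98 ± 0.23, SE, adjusted p = 0.0094). Zbp1, a sensor of nucleic acid, fell by 1.09, with tumor 97 inside the late range. Isg15 (-1.80), a ubiquitin-like protein, and Oas1a (-1.58), an antiviral enzyme, were called as well. Averaged over 26 of the genes, early tumors were at 0.11 to 1.14 and late tumors at 1.28 to 2.49. Without tumors 86 and 96, 14 interferon genes were called lower, but with slide as a random block 4 were, without early tumor 163 or 768 2 were, and with median centring 1 was. Relative to the median of all genes the list was at -0.93, and at -1.19 to -0.72 over the 24 alternatives.

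Immune cell markers made up 4 further lists. In bulk tumor RNA, fewer cells of a type and less RNA per cell cannot be told apart. Of 23 T cell genes, 3 fell (13%, beside 8.04% of all genes, median -0.69), and 1 did with median centring or slide as a random block: Cd3e of the T cell receptor complex by 1.36, Nkg7, of cytotoxic granules, by 1.07 and the protease granzyme B, Gzmb, by 0.88. Nkg7 was at -0.93, -0.65 and -0.20 in early tumors and between 0.42 and 0.56 in late ones, the tightest late group of the named genes. The T cell mean was lowest in early tumor 163 (-1.31), the other early tumors being at -0.35 and -0.29 and the late tumors at -0.24 to 0.32. Of 30 macrophage genes none was called by limma (median -0.22), nor of 14 B and plasma cell genes (median -0.16), and their place relative to all genes changed sign in 2 and 6 alternatives. The macrophage genes called numbered 0 to 10 lower and 0 to 2 higher over the 24 alternatives. For B and plasma cell genes the counts were 0 to 2 lower and 0 to 1 higher. Retnla, a gene of alternatively activated macrophages, differed most on the macrophage list by value, at -2.51, -2.78 and -1.54 in early tumors and from -3.65 through 0.29 to 1.36 in late ones, but the groups overlapped through tumor 86 (adjusted p = 0.0966). Of 17 genes of MHC class II and antigen presentation 1 fell, the costimulatory ligand Cd86 (-0.91), with 0 to 7 lower and 0 to 2 higher over the alternatives. The other members of these lists did not pass the test.

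Markers of vessels, stroma and fat were counted next. Of 24 endothelial genes, 7 fell and none rose (29.2%, beside 8.04% of all genes, median -0.78). Sox17, a transcription factor of arterial endothelium, was at -2.47, -2.79 and -2.18 in early tumors and from -1.88 through -1.09 to -0.41 in late ones (difference -1.37 ± 0.32, SE, adjusted p = 0.00886). Ptprb, the vascular endothelial tyrosine phosphatase, fell by 1.58 with the dim rows left out, and Egfl7, secreted by endothelial cells, by 1.35. Late tumor 96 came closest to the early tumors for Egfl7, at -2.20 against -2.35 to -2.26. The defining markers Pecam1 (0.16) and Cdh5 (-0.14) were not called. Averaged over 14 of the genes, early tumors were at -1.83 to -1.60, tumor 96 was at -1.76 and the other late tumors were at -1.20 to -0.19. With tumors 86 and 96 left out, 8 endothelial genes were called lower, with slide as a random block 3 were, and without early tumor 768 2 were. Of 28 fibroblast and matrix genes, 3 fell and 1 rose (10.7% lower, median -0.42), and 1 to 8 fell over the alternatives. The mean of 23 of these genes was -2.14 to -1.30 in early tumors, and late tumor 96 at -2.42 lay below them and late tumor 93 at -1.48 among them. Lum, the matrix proteoglycan lumican, was at -3.49, -3.84 and -3.16 in early tumors and from -2.87 to -0.13 in late ones, tumor 86 imputed, with a median of -1.32 (-2.24 ± 0.61, SE, adjusted p = 0.0212). Tcf21, a transcription factor of fibroblasts, fell by 1.28 with 3 values imputed, while fibulin 1, Fbln1, rose by 1.23, and Dcn is given above. Of 25 adipocyte genes 2 fell (8%, beside 8.04% of all genes), while the median was -0.87 and 1 of the 25 differences was above 0. These were Pparg, the master regulator of fat cells, which was at -3.30, -3.51 and -2.87 in early and from -2.77 through -1.76 to -0.52 in late tumors, and Cidea (-2.09), a lipid droplet protein. Neither held with slide as a random block. The adipocyte mean was -2.86 to -2.33 in early tumors, a range that also held late tumors 96 (-2.77) and 93 (-2.39). Of 25 skeletal muscle genes none was called by limma (median -0.49), but 0 to 11 were called lower and none higher over the 24 alternatives, with medians from -1.08 to 0.10. The list was at -5.70 to -2.86 in every tumor, the highest mean being that of early tumor 163. The part that vessel and stroma content had in the other results was not tested.

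**Figure D3:**
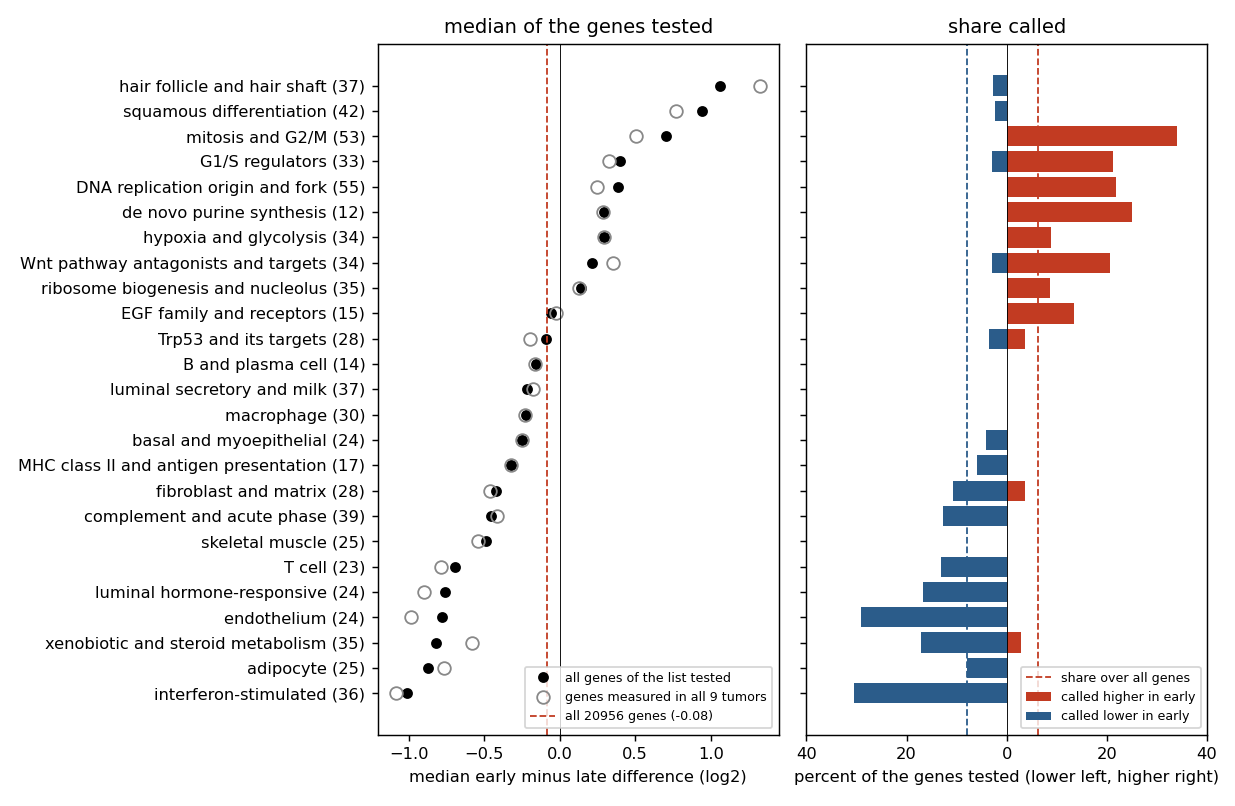
Gene lists with the number of genes tested: at left the median early minus late difference (log2 units, filled for all genes tested, open for those measured in all 9 tumors, dashed line at the -0.08 of all genes), and at right the percent of genes called higher (red) or lower (blue), with dashed lines at 6.22% and 8.04%. Mitosis genes reach 34.0% higher and interferon-stimulated genes 30.6% lower.

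The epithelial lists varied within each group. Of 24 luminal hormone-responsive genes, 4 fell and none rose (16.7%, beside 8.04% of all genes, median -0.76). Gata3, a transcription factor of luminal cells, was at 2.25 in early tumor 163 but at -0.29 and -0.07 in tumors 768 and 97, and at 2.35, 3.28, 2.87 and 1.98 in late tumors 62a, 67, 84 and 86. The difference was -1.99 ± 0.49 (SE, adjusted p = 0.0147), and tumor 163 lay within the late range. Fgfr4, a fibroblast growth factor receptor placed on this list, fell by 1.62 and Tff3, a trefoil peptide, by 1.18. The mean of 16 of these genes was 0.26 in tumor 163 and -0.85 and -0.79 in the other early tumors, and among late tumors it was -0.98 in tumor 96, -0.01 in tumor 86 and 1.01 to 1.47 in the others. The count called lower was 9 without tumors 86 and 96, but 2 with slide as a random block and 1 with median centring or with the 9 HFD arrays alone. Estrogen receptor alpha, Esr1, differed by -0.93 ± 0.60 (SE, adjusted p = 0.305), with overlap. Of 37 genes of milk and secretory cells none was called by limma at an adjusted p under 0.05, but 5 fell without tumors 86 and 96, and the median moved from -0.21 to -0.89. Between 0 and 15 were called lower and 0 to 3 higher over the 24 alternatives, and the median relative to all genes changed sign in 4 of them. Casein beta, Csn2, ranged from -0.30 to 6.72 in early tumors and from -0.48 to 8.89 in the late tumors measured, with tumors 163 and 62a the highest.

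No squamous or hair gene was called higher in early tumors by limma, and late tumor 86 was high for both lists. The medians of both lists were nonetheless above 0, here and in all 24 alternatives. Of 42 squamous differentiation genes, 34 differed upward and the median was 0.94. None was called higher and 1, Sprr3, a cornified envelope precursor, fell (-1.63), beside 6.22% and 8.04% of all genes. The mean of 30 of the genes was -2.02 in early tumor 163, -0.30 in 768 and 0.02 in 97, and 2.22 in late tumor 86, -1.38 in tumor 96 and -2.79 to -2.06 in the other late tumors. Without tumors 86 and 96 the median was 2.00, and 12 genes were called higher and 2 lower. The squamous counts ran from 0 to 30 higher and from 0 to 4 lower over the 24 alternatives. Krt10, a keratin of suprabasal epidermis, was at -4.56, -2.44 and -1.86 in early tumors and at 2.59 in tumor 86, with -4.27 to -3.75 in the other late tumors. Of 37 hair follicle and hair shaft genes, none rose and 1, Gata3, fell (median 1.06), with 3 higher and 1 lower without tumors 86 and 96 and 0 to 10 higher and 0 to 4 lower over the alternatives. The hair mean was high in early tumors 163 (1.15) and 768 (0.38) but not in 97 (-2.15), and among late tumors in 86 (1.45), the others being at -2.02 to -1.59. Of 24 basal and myoepithelial genes 1 fell, the laminin receptor subunit Itga6 (-0.85), and Krt14 (0.82) and Krt5 (0.65) were not called. The alternatives gave 0 to 7 genes higher and 0 to 5 lower, with medians from -0.37 to 0.27.

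**Figure D4:**
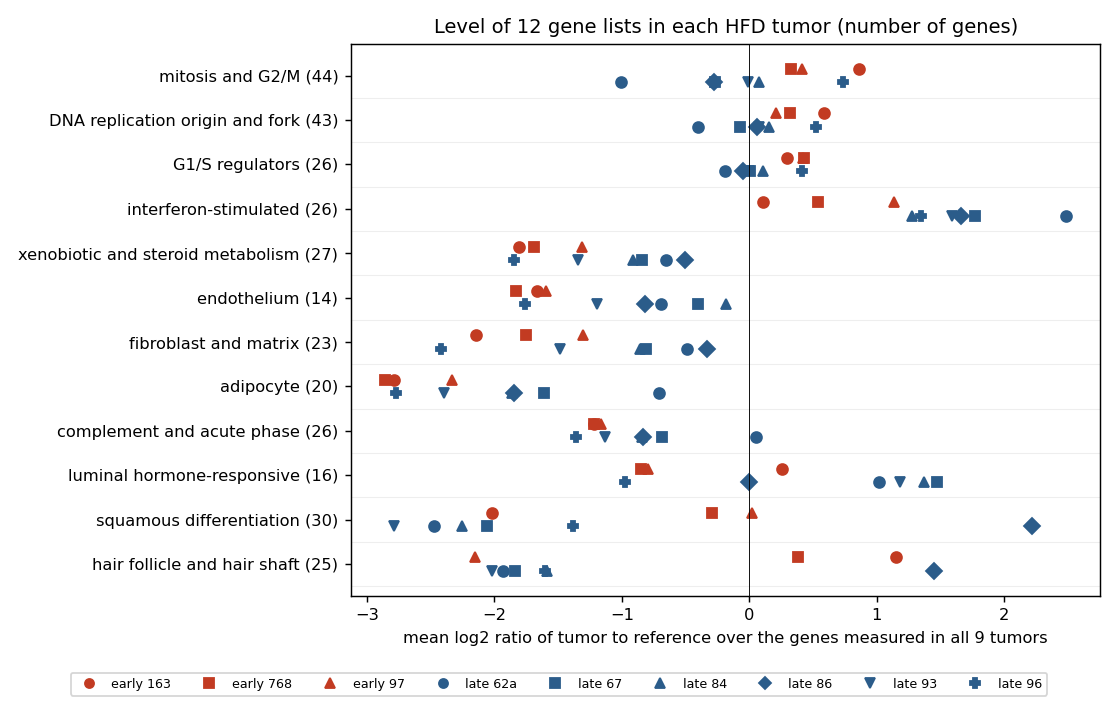
Mean log2 ratio of tumor to reference of 12 gene lists in each of the 9 HFD tumors, early in red and late in blue with 1 symbol for each tumor, over the genes measured in all 9 (number beside each list). Squamous genes are highest in late tumor 86 (2.22), and late tumor 96 lies among the early tumors for mitosis (0.73) and endothelium (-1.76).

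Metabolic and plasma protein genes formed a pair of lists. Of 35 genes of xenobiotic and steroid metabolism, 6 fell and 1 rose (17.1% and 2.86%, beside 8.04% and 6.22% of all genes, median -0.82). Cyp2d22, a cytochrome P450, was at -3.03, -3.10 and -2.92 in early tumors and at -2.06, -2.12, -1.82 and -2.07 in late tumors 62a, 67, 84 and 86. The values were tight in both groups (difference -0.998 ± 0.16, SE, adjusted p = 0.00231). Pon3, a paraoxonase that hydrolyzes lactones, was at -1.74, -1.63 and -1.02 in early tumors and from -1.13 in tumor 96 to 0.15, with a median of -0.07 (-1.23 ± 0.24, SE, adjusted p = 0.00345). The member that rose was Aldh1a1. Leaving out tumors 86 and 96, 14 genes were called lower and 2 higher, with median centring 4 were called each way, and with slide as a random block 3 were lower and 1 higher. Of 39 complement and acute phase genes 5 fell and none rose (12.8%, beside 8.04% of all genes, median -0.45), among them C2, Serpina1a, an antiprotease (-1.39, tumor 97 imputed), and complement factor I, Cfi (-1.17). Cfi had low levels in all tumors, at -7.02 to -6.05 in early and -6.02 to -5.17 in late ones. The called members Serpina1a, Itih4 and Fga were as low against the reference. Their means were -6.51, -6.73 and -6.15 in early and -5.125, -5.80 and -5.42 in late tumors. C2 was higher, with means of -2.25 and 0.31. The complement count was 9 lower genes without tumors 86 and 96, 3 with slide as a random block and 1 with median centring, and with array weights 17 were lower and 4 higher. The mean of 26 of these genes was -1.22 to -1.17 in early tumors, -1.36 in late tumor 96 and -1.14 in late tumor 93. For xenobiotic genes tumor 96 (-1.84) was likewise below every early tumor (-1.81 to -1.31).

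A short list holds genes whose RNA was also assayed by quantitative PCR in tumors of this experiment, so it is not independent evidence of its direction. Of its 8 genes, 7 passed the signal filter and 4 were called higher, beside 6.22% of all genes. With slide as a random block 2 were, and with dim rows kept 1 was. Trp53, the tumor suppressor p53, was at 1.70, 1.54 and 2.45 in early tumors and at 0.31, 0.56, 0.35 and -0.11 in late tumors 62a, 67, 84 and 86 (1.62 ± 0.36, SE, adjusted p = 0.00956). Early and late values were well apart. Ctnnb1 was at 1.0, 1.01 and 1.49 in early tumors, the first 2 of them imputed, and at 0.04, 0.52, 0.46 and -0.20 in the same late tumors (0.97 ± 0.21, SE, adjusted p = 0.00798). Ntf3, neurotrophin 3, was at 0.72, 1.02 and -0.35 in early tumors and from -2.48 through -1.15 to 0.05 in late ones (1.73 ± 0.53, SE, adjusted p = 0.0344), and early tumor 97 lay below late tumor 86. Brca1, a DNA repair gene, rose by 0.63 ± 0.18 (SE, adjusted p = 0.0255). Bmp7 (0.66), Apaf1 (0.25) and cyclin D2, Ccnd2 (-0.07), were not called, and Ccnd2 changed sign in several alternatives. Bmp10 did not pass the signal filter. Of 28 genes of p53 and its targets, 1 rose, Trp53, and 1 fell, the death receptor Fas (-1.10), which is 3.57% each way beside 6.22% and 8.04% of all genes. The median was -0.09 beside -0.08 over all genes, its place relative to all genes changed sign in 12 of the 24 alternatives, and 0 to 7 genes were called higher.

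The HFD-LFD tumors, which share no array with the HFD tumors but entered the same fit, gave 200 called genes between early and late (0.954% of those tested), 124 higher and 76 lower. Of these, 100 were also called in HFD, which is 50% of the HFD-LFD calls and 3.35% of the HFD calls, and 99 had the same sign in both. Among the 2988 genes called in HFD, 89.6% differed in the same direction in HFD-LFD, beside 68.8% of all genes. The differences were smaller there: the genes called higher in HFD had a median of 0.83 in HFD and 0.31 in HFD-LFD, and those called lower -0.85 and -0.34. The genes were picked by their HFD values, so a smaller value elsewhere is in part given by that choice. Of the genes named here, Cybrd1 (2.46 in HFD and 2.83 in HFD-LFD), Fam181b (2.33 and 3.09), Tgfa (2.19 and 1.71), Sp5 (2.67 and 4.48), Ntf3 (1.73 and 3.12), Cyp2d22 (-0.998 and -1.28), Pon3 (-1.23 and -1.23) and Oas1a (-1.58 and -2.19) were called in both. Interferon-stimulated genes had 8 called lower of 36 in HFD-LFD, with a median of -1.38, and xenobiotic genes 2 called lower. For mitosis (median 0.47) and replication genes (median 0.46) no gene was called in HFD-LFD by limma, though 3333 of all genes had an unadjusted p under 0.05. Top2a differed by 0.40, Ccna2 by 0.59 and Trp53 by 0.24 there, and none was called. The difference between the HFD and the HFD-LFD change itself passed the test for 2 genes, with 1774 at an unadjusted p under 0.05, so for the other genes a call in HFD alone was not shown to be particular to that diet.

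**Figure D5:**
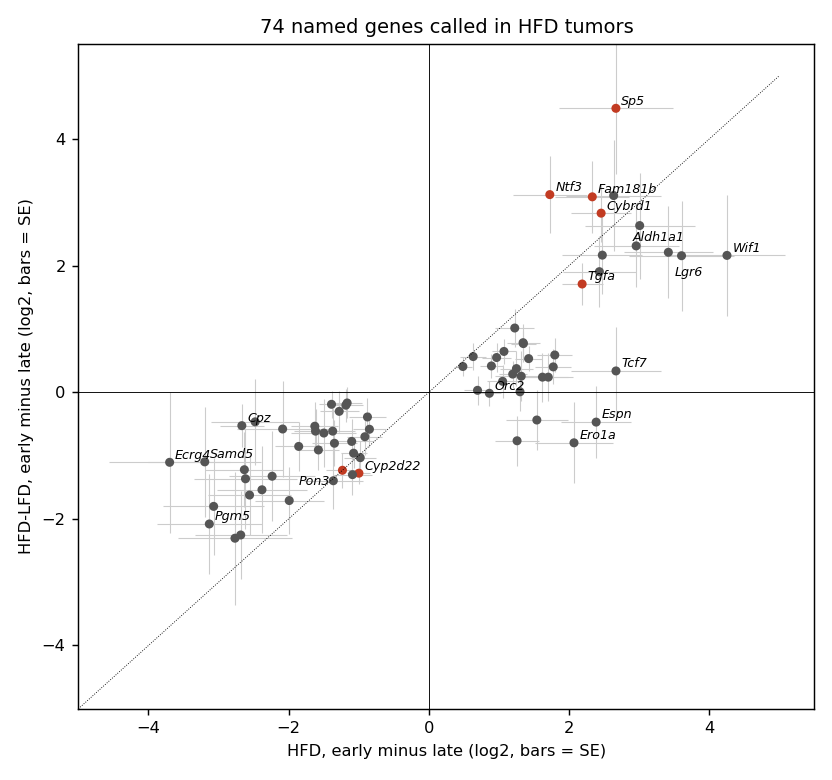
Early minus late difference (log2 units, bars are SE) in HFD on the horizontal axis and in HFD-LFD on the vertical axis for the 74 named genes called in HFD, red where also called in HFD-LFD, with a dotted line of equal values. Sp5 (2.67 and 4.48) and Cybrd1 (2.46 and 2.83) lie far from 0 on both axes, and Ero1a (2.07 and -0.80) does not.

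Calls were spread over chromosomes and signal levels. The median difference of a chromosome lay between -0.13 (chromosome 2) and -0.02 (chromosome X), and the share called lower between 5.58% (chromosome 12) and 11.2% (chromosome 6). Among 18812 genes well above background on every HFD array that measured them, 6.55% were called higher and 8.47% lower, and among 2144 measured above background on some arrays 3.27% and 4.24% were. Of the 5779 genes with late tumors 93 and 96 left out for the dim rows, 16.1% were called, against 13.6% of the 15177 others. Of the 102 named genes 74 were called, a number largely set by the rule that named them, and none of the 74 changed direction under the 24 alternatives. Some calls were nonetheless close to the threshold. Cd3e lost its call in 13 of the 24 alternatives, Ntf3 in 10, Cidea and Pparg in 9, Dcn, Gzmb, Nop16 and Syn2 in 8, Sp5 in 8 of the 23 in which it could be compared, Erbb3 in 7, and Gata3, Itga6 and Polr1c in 6. When the dim rows were kept, 27 of the called genes lost their call, and Gata3 and Ptprb, whose probes lie in those rows, differed by -0.06 and -0.006. Beside the imputed values given above, 1 HFD tumor was imputed for Cd86, Cldn3, Dcn, Epcam, Itga6, Mmrn1, Nop16 and Reg1.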

How the data were processed

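Gene expression was measured in 24 mammary tumors on Agilent 2-color arrays, each beside a reference RNA, and the 3 early and 6 late HFD tumors were compared. The deposited intensity values are the scanner's mean brightness and local background of each spot in Cy5 and Cy3, and the deposited log10 values are the scanner software's ratios of Cy5 to Cy3. The software was Agilent Feature Extraction, version 8.5.1.1 in the labels and 11.0.1.1 in the file headers. The study's methods name normalization, a signal filter and imputation, which are not in these intensities and were run here in R 4.3.3 with limma 3.58.1: normexp background correction (offset 50), loess within arrays, spots of a probe averaged, a filter that kept 27305 of 39429 probes, those whose signal passed 10 in each channel on 80% or more of the arrays, and missing values imputed from the 10 nearest probes. Spots in dim rows of the affected slides were left out and not imputed. The brightest probe stood for a gene. Of the probes, 27241 were named by accession in RefSeq, 3574 by symbol, 564 by an older symbol, and 8050 kept the file's name.

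The means of the 6 diet and onset groups were fitted over all 24 arrays, and contrasts of log2 ratios were tested by limma with an adjusted p (Benjamini-Hochberg) under 0.05. Genes were named by rule: for each direction the 12 called genes with the largest change and no overlap, with a known symbol and at most 1 imputed value, the 3 smallest p of each gene list, and the genes the study measured. Others were named after their values had been seen. The comparison, the lists and the rule were chosen with earlier results of these data known. Alternatives were the 9 HFD arrays alone, dim rows kept, tumors 93 and 96 left out, no background correction, median centring, the scanner's log ratio, no imputation, no filter, the mean of probes, array weights, a variance trend, slide or scan session as a block, an unadjusted p and each tumor left out. Low signals imputed, and tumors 86 and 96 left out, were added after seeing the data. The steps were tested on simulated data. Histology and latency of single tumors were not analysed here.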

Additional observations from a re-analysis of the deposited data

Results flagged for a closer look

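The onset change differed between HFD and HFD-LFD tumors for 2 genes by a test of that difference (limma, adjusted p under 0.05). For Hoxd3os1, a long noncoding RNA of the Hoxd cluster matched by its accession, the HFD change minus the HFD-LFD change was -2.50 (adjusted p = 0.0294): it differed by -0.02 between early and late HFD tumors and by 2.48 in HFD-LFD, where 2 late tumors measured it. For Neto1, a transmembrane protein gene, it was -3.91 (adjusted p = 0.0181), with 0.74 in HFD and 4.65 in HFD-LFD. Neither was called by limma with slide or scan session as a block, without background correction or with the mean of probes.

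Among the 102 named genes, 15 had 1 late HFD tumor far from the other late tumors by Dixon's gap, which chance alone marks in about 1 of 20 groups. Tumor 86 was the distant one for 7 genes. In that tumor the log2 ratio to the reference was low for the epithelial genes Cldn3 (-3.36), Epcam (-1.31) and Kit (-1.39) and for Irf1 (0.90), and high for Serpinb5 (3.37), Cd3e (0.75) and Chil3 (-2.99). Tumor 62a was distant for 4 genes, high for Pgm5 (0.47) and Orc2 (0.45) and low for Ccbe1 (0.87) and Ankrd37 (-0.90). Tumor 96 was distant for 3 genes, high for Tfdp1 (1.37) and low for Egfl7 (-2.20) and Pon3 (-1.13), each time toward the early tumors. Tumor 67 was high for Syn2 (0.73).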

How the results depend on the processing

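Of the 74 named genes called, none changed direction in the 24 alternatives, and 45 to 74 kept their call, except that 73 could be compared with dim rows kept. The count of 2988 genes became 6455 at an unadjusted p, 871 with the 9 HFD arrays alone, 1556 with dim rows kept, 8825 with array weights and 1244 with slide as a random block, and 1157 to 3906 with 1 tumor left out, the 3 early tumors giving the lowest counts. The others stayed within 1.5 times of it, which does not mean that the same genes were called. Of the 2988 genes, 51.2% kept their call with median centring and 69% with the scanner's log ratio. The count of 200 in HFD-LFD became 3333 at an unadjusted p, 51 with dim rows kept, 332 without tumors 93 and 96, 397 with median centring, 129 with the scanner's log ratio, 2340 with array weights, 68 with the slide block, 631 with the session block, 514 without tumors 86 and 96, and 139 to 344 with 1 HFD tumor left out. The count of 2 for the difference between diets became 1774 at an unadjusted p, 1 with dim rows kept or low signals imputed, 646 with array weights, and 1 to 18 with 1 tumor left out. It was 0 in limma without background correction (1613 at an unadjusted p), with the mean of probes (1730), with the slide block (1050) and with the session block (1584). The causes were not tested. No called gene reversed among those named, but uncalled ones did: Ccnd2 was at 0.024 without tumors 93 and 96, 0.34 with median centring, 0.073 with the scanner's ratio, 0.19 with the session block and -0.32 to 0.16 with 1 tumor left out, Tgm3 was at 0.052 with median centring, and Cldn3 was at -0.15 with array weights, -0.18 without tumors 86 and 96 and -0.11 to 0.88 with 1 tumor left out, the negative value being that without tumor 86. No paired analysis was possible because the replicate numbers only follow accession order. The titles of tumors 62a and 62b share a number but carry different diet labels, and no pair of early and late HFD tumors shares one. Signal limits precision for the genes not well above background on every array.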

Other observations

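Gene families picked by symbol after the values had been seen are given as values only, beside 6.22% of all genes called higher and 8.04% called lower. Of the 8 subunits of the cytosolic chaperonin, which folds actin and tubulin, 5 rose in early HFD tumors, with a median difference of 0.67, and 4 or 5 were called under other scalings. Cct6a was at 1.29, 1.48 and 1.39 in early tumors and at 0.51 or below in late ones, a difference of 1.65 ± 0.36 (SE, adjusted p = 0.00614), and Cct3 differed by 1.48. Of 53 translation initiation factors 10 rose (18.9%) and none fell, and of 349 zinc finger protein genes 43 rose (12.3%) and 11 fell (3.15%), while with median centring 104 of the latter rose and 2 fell. Of 113 cytosolic ribosomal protein genes 16 rose (14.2%) and 2 fell, while with median centring 32 rose and none fell and with the scanner's log ratio 9 rose (7.96%) and 2 fell. This is uncertain for single genes because near-identical copies can bind the same probe. Of 71 cytochrome P450 genes 16 fell (22.5%) and none rose, and with median centring 5 fell and 2 rose. Of 48 subunits of respiratory complex I, 9 fell and none rose, and with median centring, which moved the median of all genes from -0.08 to 0.24, 7 rose and none fell. Relative to all genes the median of this family was -0.19, and -0.10 with median centring. Of 312 solute carrier genes 9 rose and 41 fell, against 28 and 8 with median centring, and their median relative to all genes was -0.16 and -0.14. Of 29 Hox genes 3 fell (10.3%) and none rose, but 1 fell with median centring or without background correction and none with the scanner's log ratio (limma).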
